A study of Mus musculus with 63 samples.

Results

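Emx1, Emx2, Lhx2, Otx1, Otx2, Irx1, Irx2, Zic1 and Zic2 are transcription factors that mark territories of the developing brain, and they were followed here in the 4 sorted cell populations of the study. They were chosen by symbol, as forebrain factors set against diencephalic and hindbrain ones, and all 9 had a row among the 56980 Ensembl genes of the count tables. Their levels bear on how cleanly cortex was dissected and on how the motor cortex compares with the cortex caudal to it. RNA-seq was done on female adult C57BL/6J mice that received either a non-severe thermal burn over 7 to 8% of the body surface on the right flank or a sham procedure with everything but the burn, and tissue was taken weeks later. All mice of both groups carried 2 viruses injected into the motor cortex of both hemispheres, AAV5-CamKII-eGFP, whose promoter is meant for excitatory neurons, and AAV1-mDlx-NLS-mRuby2, whose enhancer is meant for inhibitory neurons. CaMKII positive cells (4 burn and 6 sham libraries) and CaMKII-mDlx double-positive cells (9 and 7) were sorted from motor cortex, while ACSA2 positive astrocytes (9 and 8) and CD11b positive microglia (8 and 7) were sorted from the cortex caudal to it. These 58 libraries came from 17 mice, and a mouse gave up to 4 of them.

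Each population was taken from only 1 region, so motor against caudal cortex and one cell population against another cannot be told apart. In addition, the marker genes went against the labels of both virus-sorted populations. In CaMKII positive libraries 8 astrocyte markers summed to 13371 to 25178 CPM (the count of a gene divided by the total of its library and scaled to counts per 1e+06) and 5 endothelial markers to 2776 to 7986 CPM, while 5 markers of excitatory neurons summed to 26.0 to 441 CPM. In double-positive libraries 7 microglia markers summed to 15906 to 30439 CPM and 6 inhibitory neuron markers to 0.476 to 3.62 CPM. The astrocyte libraries (35955 to 50269 CPM of astrocyte markers) and the microglia libraries (19271 to 30479 CPM of microglia markers) matched their labels. The first 2 populations are therefore named by their sort and not as neurons. Total counts ran from 13346143 to 134703744 per library, so that 3 counts, taken as the floor of detection, stood for 0.0223 to 0.225 CPM. Intervals and floors of this kind cover counting error only. In bulk samples, fewer cells of a type and less RNA per cell cannot be told apart.

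Early in development the neural tube is divided along its length by transcription factors, and adult glia of a region retain part of that code. Lhx2 and Emx2 are homeodomain factors of the cortical primordium, and Emx2 is higher caudally and medially in the embryonic cortex. Otx1 and Otx2 are related homeodomain factors of the forebrain and midbrain, of which Otx2 is retained in adult choroid plexus and parts of the thalamus and midbrain. The Irx factors mark thalamus, midbrain and hindbrain and are largely missing from cortex. The Zic zinc finger factors are used in the dorsal midline, the septum, the meninges and the cerebellum.

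The sequence before the start of transcription is shown for 3 members that behaved differently across astrocyte libraries, since Lhx2 was read in all of them and Otx2 and Irx2 in some. The windows are the 250 bases upstream of a RefSeq start on GRCm38.p6, taken from the strand of the gene, and capitals mark CpG dinucleotides. RefSeq windows were at hand for 6 of the 9 members. Otx2 has 4 RefSeq starts and Lhx2 has 2, and the start shown is the one whose window overlaps none of the exons of the gene.
Lhx2, chr2:38339031-38339280, plus strand: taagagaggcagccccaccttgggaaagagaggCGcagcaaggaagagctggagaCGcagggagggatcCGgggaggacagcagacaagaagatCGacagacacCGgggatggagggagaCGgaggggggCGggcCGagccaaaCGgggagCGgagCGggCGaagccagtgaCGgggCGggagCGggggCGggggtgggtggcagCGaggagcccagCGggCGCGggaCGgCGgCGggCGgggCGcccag
Irx2, chr13:72628570-72628819, plus strand: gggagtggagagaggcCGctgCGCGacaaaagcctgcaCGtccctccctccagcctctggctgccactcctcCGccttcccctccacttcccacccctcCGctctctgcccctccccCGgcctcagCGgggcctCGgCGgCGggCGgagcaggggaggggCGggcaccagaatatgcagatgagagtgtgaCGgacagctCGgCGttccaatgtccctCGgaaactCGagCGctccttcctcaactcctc
Otx2, chr14:48667645-48667894, minus strand: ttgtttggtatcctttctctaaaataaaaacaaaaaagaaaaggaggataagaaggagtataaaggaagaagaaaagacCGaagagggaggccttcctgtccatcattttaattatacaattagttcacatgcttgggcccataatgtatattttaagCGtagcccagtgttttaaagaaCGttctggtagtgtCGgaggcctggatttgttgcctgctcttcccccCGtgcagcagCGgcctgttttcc

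The Lhx2 window held 25 CpG and a GC content of 72.8%, the Irx2 window 19 CpG and 68.4%, and the Otx2 window 6 CpG and 42.0%, against a median of 6 CpG and 52.4% over all 32851 windows of the same length. Searched on both strands, the homeodomain core TAATTA had 1 match in the Otx2 window and 0 in the others, where 4.84% of all windows held it. The Otx-type motif TAATCC had 0 matches in the 3 windows, against 6.25% of all windows. The TATA box letters TATAAA had 1 match in the Otx2 window and 0 in the others, against 12.4% of all windows. The other starts differ, since a further Otx2 window held 3 matches of TAATTA and 1 of TAATCC. A match here is a description of letters and not of a bound site.

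**Figure D1:**
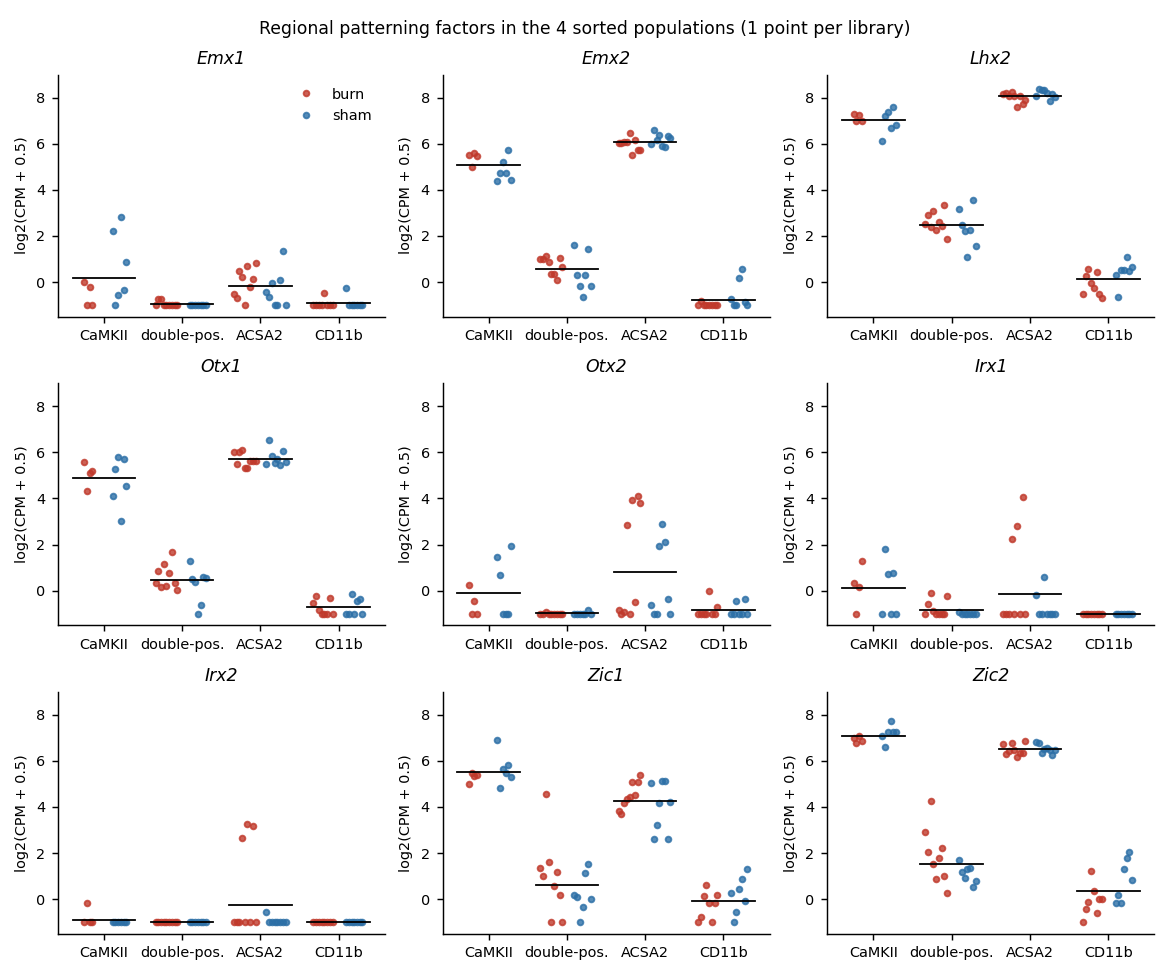
Level of each of the 9 factors as log2(CPM + 0.5) in the 4 sorted populations, with 1 point per library, burn in red and sham in blue, and a black line at the mean of the population. Lhx2, Emx2, Otx1, Zic1 and Zic2 are high in the CaMKII and ACSA2 libraries and low in the double-positive and CD11b libraries, and Irx1, Irx2 and Otx2 are at or near the bottom of the scale in most libraries.

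Lhx2, which sets cortical identity in the embryo, was the highest of the forebrain factors. In astrocytes it was read at 191 CPM in the lowest library, 271 in the median and 335 in the highest. CaMKII positive cells had 69.1, 137 and 191 CPM. The ranges of these 2 populations met only at their ends, and both lay far above those of the double-positive cells (1.62, 4.99 and 11.2 CPM) and of the microglia (0.118, 0.730 and 1.63 CPM). Lhx2 also varied little among astrocyte libraries, with a mean of 273 ± 39.4 CPM (SD, n = 17).

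Emx2, the caudal and medial cortical factor, followed the same order at lower levels. Its lowest, median and highest astrocyte libraries held 44.5, 66.7 and 95.8 CPM, and those of CaMKII positive cells 20.2, 33.9 and 52.3 CPM. Double-positive libraries had 0.141 to 2.53 CPM, and only 5 of 15 microglia libraries had any Emx2 count. Emx2os, the antisense transcript of the Emx2 locus, stood at 43.5 ± 12.0 CPM (SD, n = 17) in astrocytes and 29.6 ± 19.8 CPM (SD, n = 10) in CaMKII positive cells. The loci share 264 exon bases on opposite strands, and the strand setting of the counting is not given in the sources used here, so reads from that stretch cannot be assigned to either.

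Otx1, the Otx factor of the developing cortex, was read in all astrocyte libraries (39.5, 49.0 and 91.9 CPM for the lowest, the median and the highest) and in all CaMKII positive libraries (7.62, 34.9 and 55.4 CPM). These ranges overlapped. It stayed at or under 2.73 CPM in the double-positive cells and at or under 0.401 CPM in microglia.

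Emx1, whose protein marks the excitatory lineage of the dorsal cortex, was low everywhere. The median was 0.335 CPM in CaMKII positive libraries and 0.356 CPM in astrocytes. CaMKII positive libraries of mouse 17 (6.52 CPM) and mouse 8 (4.20 CPM), both sham, stood above the other 8, which held at most 1.32 CPM. Counts were present in 2 of 16 double-positive and 2 of 15 microglia libraries.

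Zic2 was the highest Zic member and, unlike those of Lhx2, Emx2 and Otx1, its mean was higher in CaMKII positive cells (138 ± 32.4 CPM, SD, n = 10) than in astrocytes (91.0 ± 14.2 CPM, SD, n = 17). The libraries ran from 97.3 to 214 CPM in CaMKII positive cells and from 71.1 to 115 CPM in astrocytes, and they overlapped. Zic1 ran from 27.5 to 120 CPM with a median of 42.3 in CaMKII positive cells and from 5.57 to 40.9 CPM with a median of 19.5 in astrocytes. Double-positive cells had medians of 0.808 CPM of Zic1 and 2.00 CPM of Zic2, and microglia 0.447 and 0.509 CPM.

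Otx2, Irx1 and Irx2 were absent from most libraries. Otx2 had counts in 12 of 17 astrocyte libraries, 5 of 10 CaMKII positive libraries, 2 of 16 double-positive and 4 of 15 microglia libraries. Irx1 had counts in 5 of 17 astrocyte, 6 of 10 CaMKII positive and 5 of 16 double-positive libraries. Irx2 had counts in 4 of 17 astrocyte libraries and in 1 CaMKII positive library, that of mouse 20, at 0.404 CPM from 12 counts. Irx1 was at 0 in all 15 microglia libraries, and Irx2 in all 15 microglia and all 16 double-positive libraries. Of the other Irx family genes, Irx4 was at 0 in all 58 libraries. Irx3 had counts in all 10 CaMKII positive libraries (mean 3.91 CPM) and in 15 of 17 astrocyte libraries (mean 2.27 CPM), and Irx5 in 5 of 10 (mean 1.81 CPM) and in 15 of 17 (mean 2.42 CPM).

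Per kilobase of exon (GENCODE M21), which is the scale on which genes can be ordered, the mean astrocyte level was 62.1 for Lhx2, 31.6 for Zic2, 22.7 for Emx2, 9.92 for Otx1, 3.83 for Zic1, 0.927 for Otx2, 0.630 for Irx1, 0.422 for Irx2 and 0.235 for Emx1, in CPM per kilobase. In CaMKII positive cells Zic2 (47.9) came before Lhx2 (30.8), followed by Emx2 (11.7), Zic1 (8.66), Otx1 (6.06), Emx1 (0.613), Irx1 (0.332), Otx2 (0.178) and Irx2 (0.0123). The mean levels of neighbours differed by less than the larger of their SDs from Emx2 to Otx1 and from Emx1 to Irx2 in the CaMKII positive cells, and from Otx2 to Emx1 in the astrocytes, so no order is given among these.

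Motor against caudal cortex was compared between CaMKII positive cells and astrocytes, the 2 populations that shared astrocyte markers. In edgeR's quasi-likelihood test over 33150 genes, a gene was called at an adjusted p of 0.05 or less and a log2 fold change of at least 1 in either direction, and 18.4% of all genes were called, with 4.34% of all genes lower in the CaMKII positive cells. Of the 9 factors, 2 were called, both lower there. Emx2 was lower by a log2 fold change of -1.11 (SE 0.32, adjusted p = 0.00416) and Lhx2 by -1.18 (SE 0.23, adjusted p = 2.39e-05). Otx1 at -0.78 (adjusted p = 0.0523), Zic1 at 0.81 (adjusted p = 0.245) and Zic2 at 0.39 (adjusted p = 0.442) did not pass. Irx2, with few counts, did not pass at -4.24 (adjusted p = 0.0718) but was called with all 63 libraries (-4.52, adjusted p = 0.0367), with no batch term (-4.18, adjusted p = 0.0497) and without mouse 20 (-6.90, adjusted p = 0.0365). With mouse 8 left out, Emx2 stood at -0.98, under the minimum fold change, and scaled by total count alone both stood under it, at -0.91 for Emx2 and -0.98 for Lhx2. In batch 3 alone Lhx2 stood at -0.99, also under it.

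The same mouse gave both populations in 10 cases, and these pairs were compared with an exact two-sided sign-flip permutation test on log2(CPM + 0.5), adjusted over all genes. Lhx2 was lower in CaMKII positive cells in 10 of 10 mice, by a mean log2 difference of -1.05 ± 0.38 (SD), and Emx2 in 10 of 10 mice, by -1.03 ± 0.56 (SD), both at an exact p of 0.00195, the smallest that 10 pairs can give, and an adjusted p of 0.0149. Zic2 was higher in 10 of 10 mice, by 0.54 ± 0.41 (SD, exact adjusted p = 0.0149), and Zic1 in 9 of 10 mice, by 1.07 ± 0.91 (SD, exact adjusted p = 0.0239). Otx1 was lower in 9 of 10 mice, by -0.78 ± 0.73 (SD, exact adjusted p = 0.0239).

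The astrocyte markers themselves differed by as much. Their sum was lower in CaMKII positive cells in each of the 10 mice, by a mean log2 difference of -1.07 ± 0.33 (SD), and all 8 were called lower, beside 4.34% of all genes. Set against that sum, Lhx2 made up 0.665 ± 0.128% (SD, n = 10) in CaMKII positive cells, 0.648 ± 0.0978% (SD, n = 17) in astrocytes and 0.589 ± 0.163% (SD, n = 16) in double-positive cells, differences within the spread of the libraries. In microglia it made up 0.261 ± 0.151% (SD, n = 15). Emx2 made up 0.172 ± 0.0448% in CaMKII positive cells and 0.161 ± 0.0280% in astrocytes, but 0.112 ± 0.0453% in double-positive cells and 0.0433 ± 0.0974% in microglia. Zic2 did not keep a common share, at 0.727 ± 0.338% in CaMKII positive cells against 0.217 ± 0.0415% in astrocytes, and neither did Zic1, at 0.259 ± 0.176% against 0.0535 ± 0.0295%. In double-positive cells and microglia Zic2 made up 0.370 ± 0.447% and 0.383 ± 0.377%, and Zic1 0.250 ± 0.580% and 0.208 ± 0.174%. These means were also above those of astrocytes, with wide spreads, and the median of Zic1 in double-positive cells was 0.0908%. In the paired test after scaling to the astrocyte markers, an alternative chosen after the data were seen, Lhx2 differed by 0.03 ± 0.27 (SD, exact p = 0.756) and Emx2 by 0.04 ± 0.45 (SD, exact p = 0.785), while Zic2 was higher by 1.61 ± 0.64 (SD) and Zic1 by 2.15 ± 1.03 (SD), each in 10 of 10 mice at an exact p of 0.00195.

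**Figure D2:**
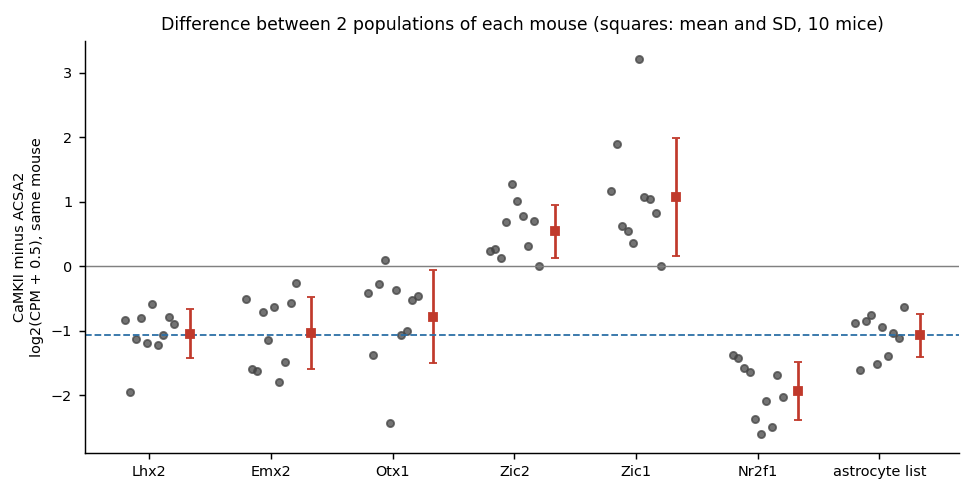
Difference between the CaMKII positive and the ACSA2 library of the same mouse in log2(CPM + 0.5), with 1 grey point per mouse and a red square with its bar for the mean and SD over 10 mice, and the mean of the summed astrocyte markers as a dashed line at -1.07. Lhx2 (-1.05) and Emx2 (-1.03) lie on that line, Zic2 (0.54) and Zic1 (1.07) above it and Nr2f1 (-1.93) below it.

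Markers of several other cell types were higher beside the Zic genes. In CaMKII positive cells 14.1% of all genes were called higher than in astrocytes, and so were all 5 endothelial, 5 of 10 meningeal fibroblast, all 7 microglia and all 5 oligodendrocyte markers. The microglia marker sum was 424 to 1955 CPM there against 44.1 to 157 CPM in astrocytes, and the meningeal sum was 174 to 1074 CPM there against 43.7 to 120 CPM in astrocytes. Their part in the Zic difference was not tested. Of the same gene family, Zic5 was at 44.1 CPM in CaMKII positive cells and 45.5 CPM in astrocytes and Zic4 at 11.8 and 4.65 CPM, and neither was called. Of the 6 tested genes in the list of other Irx and Zic genes, 2 were called higher and 0 lower, beside the 14.1% of all genes called higher, with a median log2 fold change of 0.86 beside -0.03 over all genes.

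Among 18 other genes of cortical patterning, 6 were called lower and 1 higher in CaMKII positive cells, beside 4.34% of all genes lower and 14.1% higher, with a median log2 fold change of -0.38. The 4 with the highest levels were Fgfr3, the growth factor receptor (956 CPM in CaMKII positive cells against 1745 in astrocytes, log2 fold change -1.06, adjusted p = 0.00733), Gli3, a mediator of hedgehog signalling (191 against 371 CPM, -1.13, adjusted p = 0.000731), Cux1, an upper-layer factor (141 against 132 CPM, -0.08, adjusted p = 0.289), and Nr2f1, which is graded from high caudally to low rostrally in embryonic cortex (50.7 against 189 CPM, -2.05, adjusted p = 8.63e-09). CPM is over the library total, while the fold changes come from the edgeR fit, with its own scaling and its batch and treatment terms. For Cux1 the 2 differ in sign. Nr2f1 was lower in 10 of 10 mice, and it was still lower after scaling to the astrocyte markers, in 9 of 10 mice by -0.86 ± 0.54 (SD, exact p = 0.00391). Between double-positive cells and microglia, also from motor and caudal cortex, it went the other way. There it was higher in the double-positive cells in 12 of 14 mice, by 1.16 ± 0.85 (SD, exact adjusted p = 0.0212). Its share of the astrocyte markers was alike in these 2, at 0.243 ± 0.0994% (SD, n = 16) and 0.234 ± 0.160% (SD, n = 15).

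The double-positive cells and the microglia shared microglia markers and also came from motor and caudal cortex. Here 7.98% of all genes were called, with 6.37% of all genes higher in the double-positive cells, and 5 of the 9 factors were called higher in the double-positive cells. Lhx2 was higher by a log2 fold change of 3.10 (SE 0.25, adjusted p = 4.15e-15), Emx2 by 3.53 (SE 0.44, adjusted p = 1.19e-08), Otx1 by 2.96 (SE 0.42, adjusted p = 3.18e-07), Zic1 by 1.94 (SE 0.59, adjusted p = 0.0224) and Zic2 by 1.78 (SE 0.39, adjusted p = 0.00105). The astrocyte marker sum was 485 to 1441 CPM in double-positive libraries and 205 to 356 CPM in microglia libraries, and its part in these differences was not tested. Zic1 rested on single libraries. Without mouse 10 its log2 fold change was 1.13 (adjusted p = 0.172), without mouse 2 it was 1.66 (adjusted p = 0.0602), and with the mouse as a block, which pairs the libraries of an animal, it was 1.69 (adjusted p = 0.0733). In batch 3 alone neither Zic1 (0.18, adjusted p = 0.993) nor Zic2 (0.44, adjusted p = 0.521) passed, and neither did in the exact paired test (exact adjusted p = 0.451 and 0.153).

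Within each region the factors separated the populations. In caudal cortex, 53.8% of all genes were called between astrocytes and microglia, 32.1% of all genes higher and 21.7% lower in astrocytes, and all 9 factors were called higher in astrocytes. The log2 fold change was 8.75 (SE 0.28) for Lhx2, 9.48 (SE 0.44) for Emx2, 8.80 (SE 0.42) for Otx1 and 6.63 (SE 0.42) for Zic2. Against microglia libraries that were all at 0, the mean level of astrocytes was at least 13.95-fold higher for Irx1 and at least 11.7-fold higher for Irx2, with the bound set by 3 counts per library. Both bounds leaned on 1 library, and they were 6.41-fold for Irx1 without mouse 23 and 7.69-fold for Irx2 without mouse 21. In motor cortex, 45.2% of all genes were called between CaMKII positive and double-positive cells, with 27.7% of all genes higher in the CaMKII positive cells, and 8 of the 9 factors were called higher in the CaMKII positive cells, from 4.32 for Zic1 to 6.75 for Otx2 on the log2 scale, with Irx2 the exception (adjusted p = 0.0521). Irx2, read in 1 CaMKII positive library, was called there by DESeq2, with scaling by total count only, with all 63 libraries and with no batch term, while DESeq2 lost the call of Irx1 (4.61, adjusted p = 0.0597). In the exact paired test on log2(CPM + 0.5), the calls of Emx1, Irx1 and Irx2 between astrocytes and microglia and of Emx1, Otx2 and Irx1 between CaMKII positive and double-positive cells were lost, and those of Lhx2, Emx2, Otx1, Zic1 and Zic2 were not. Emx1 between astrocytes and microglia passed that test (higher in 10 mice and lower in 1, exact adjusted p = 0.00424) and fell only under the minimum fold change, at 0.76.

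Across the remaining pairs the picture was the same in direction. CaMKII positive cells were called higher than microglia for 8 factors, with Irx2 again the exception, where 45.5% of all genes were called and 29.6% were higher. Double-positive cells were called lower than astrocytes for all 9, where 52.5% of all genes were called and 29.1% were lower, and for Irx1 that call was lost with the mouse as a block (log2 fold change -1.78, adjusted p = 0.570). In the exact paired test the calls against microglia of Otx2 (0.73, exact adjusted p = 0.183) and Irx1 (1.108, exact adjusted p = 0.0715) were lost, as were those of Irx1 (exact adjusted p = 0.219) and Irx2 (exact adjusted p = 0.327) between double-positive cells and astrocytes, and in batch 3 alone that of Otx2 against microglia (2.25, adjusted p = 0.134). Emx1 between double-positive cells and astrocytes passed the exact paired test (lower in 12 mice and higher in 0, exact adjusted p = 0.00112) and fell only under the minimum fold change, at -0.83. Irx2 against microglia was called by DESeq2 and with no batch term. These comparisons share libraries with the ones above.

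Dissection was looked at through the factors that should be missing from cortex. In astrocytes Irx2 was carried by 3 libraries, those of mouse 11 (5.84 CPM), mouse 21 (8.98 CPM) and mouse 23 (8.54 CPM), with 0.184 CPM in mouse 8 and 0 in the other 13. Irx1 was highest in the same 3, at 4.22, 6.53 and 15.9 CPM, with 1.02 CPM in mouse 15, 0.368 CPM in mouse 8 and 0 in the other 12. These 3 mice all belonged to the burn group.

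Otx2 spread over more libraries. It stood at 6.60 CPM in mouse 11, 14.9 in mouse 21 and 16.8 in mouse 23, and also at 13.4 in mouse 24 of the burn group and at 3.27, 7.01 and 3.85 CPM in mice 15, 16 and 17 of the sham group. The other 10 libraries held at most 0.283 CPM. Otx2os1, the transcript antisense to Otx2, was highest in mouse 24 (6.07 CPM), in which Irx1 and Irx2 were at 0.

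Some genes of the diencephalon and midbrain followed the libraries with Irx1 and Irx2 and others did not. A list of 17 such genes summed to 10.1, 17.2 and 15.8 CPM in mice 11, 21 and 23, with 12.0 CPM in mouse 24, 7.25 CPM in mouse 16 and at most 3.39 CPM in the other 12, so that mouse 24 stood above mouse 11. Pax3, a factor of the dorsal midbrain, was at 4.998, 6.70 and 6.42 CPM in the 3 libraries and at most 1.70 CPM elsewhere. Foxb1, a factor of the hypothalamus and thalamus, was at 1.56, 5.14 and 5.65 CPM in the 3 and at 0 in the other 14. En2, a factor of the midbrain and hindbrain border, was instead highest in mouse 24 (4.93 CPM), and Rax, a factor of the hypothalamus, in mouse 24 (2.57 CPM) and mouse 16 (2.29 CPM), where Irx1 and Irx2 were at 0. Agt, the angiotensinogen gene, was also highest in these 3 libraries, at 273, 421 and 486 CPM against 71.9 to 226 CPM in the other 14, and was picked after its values were seen. Sparc, picked in the same way, was highest in mouse 23 (419.6 CPM) and mouse 21 (392.1 CPM) but stood at 196 CPM in mouse 11, below mouse 19 (316 CPM). Of 18 hindbrain genes, among them 11 Hox genes, 15 were at 0 in every astrocyte library, and the list summed to at most 4.72 CPM. A list of 5 thalamic neuron genes, most of whose sum came from Tcf7l2 and Prkcd, did not follow the 3 libraries, at 162 CPM in mouse 11, 161 in mouse 21 and 147 in mouse 23 against 126 to 183 CPM in the other 14. The mean of that sum was 588 CPM in double-positive cells and 552 CPM in microglia, above the 151 CPM of astrocytes. A few CPM of its other members would not show in such a sum.

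Of the forebrain factors, Lhx2 was lowest in 2 of the 3 libraries, at 191 CPM in mouse 21 and 209.5 in mouse 23, but stood at 298 CPM in mouse 11. Emx2 was lowest in mouse 21 (44.5 CPM), with mouse 24 (52.2 CPM) and mouse 23 (52.5 CPM) next. Otx1 was lowest in mouse 20 (39.5 CPM) and mouse 21 (39.96 CPM) and stood at its median in mouse 23 (49.0 CPM). Emx1 was above its median of 0.356 CPM in all 3, at 0.671 CPM in mouse 11, 1.14 in mouse 21 and 0.610 in mouse 23. Choroid plexus markers did not follow the same 3 libraries. Their sum was highest in mouse 15 (62.8 CPM) and mouse 23 (60.0 CPM) and was 28.5 CPM in mouse 21 and 3.68 CPM in mouse 11. In the other libraries where Otx2 stood up, it was 45.4 CPM in mouse 16, 20.2 in mouse 24 and 12.0 in mouse 17. Mouse 18 (16.1 CPM) and mouse 20 (13.1 CPM), which held little or no Otx2, stood above mouse 17. The part of choroid plexus in the Otx2 levels was not tested.

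**Figure D3:**
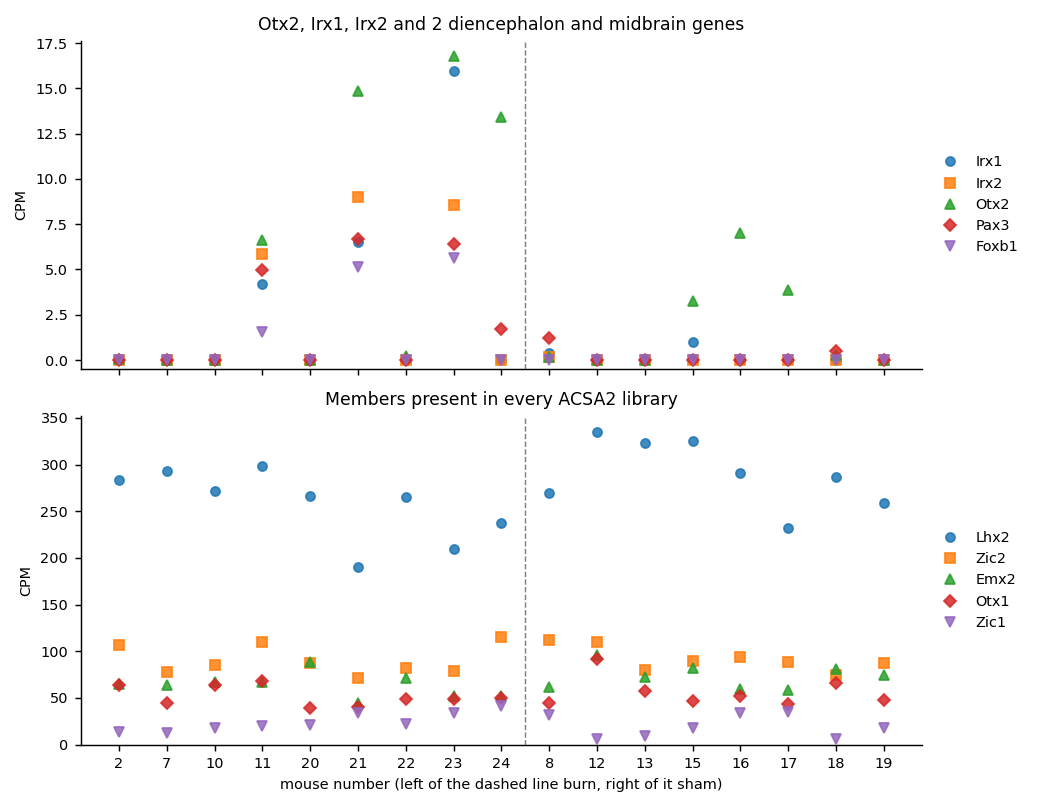
CPM in each of the 17 ACSA2 libraries, ordered by treatment and mouse number, with Irx1, Irx2, Otx2, Pax3 and Foxb1 in the upper panel and Lhx2, Zic2, Emx2, Otx1 and Zic1 in the lower panel. Irx2, Pax3 and Foxb1 stand up in mice 11, 21 and 23, where Irx2 holds 5.84 to 8.98 CPM, Otx2 stands up in 4 further libraries, and Lhx2 is lowest in mice 21 and 23.

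Mice 11, 21 and 23 gave no CaMKII positive library, so the highest values of these genes in astrocytes and in CaMKII positive cells come from different mice. In CaMKII positive cells Irx1 was highest in mouse 15 (3.02 CPM) and had a median of 0.686 CPM, against 0 in astrocytes. Within a mouse Irx1 was higher in CaMKII positive cells in 6 of 10 mice and lower in 1 (mean log2 difference 0.87 ± 1.00 SD, exact adjusted p = 0.118). Otx2 was highest in mouse 19 (3.28 CPM) and mouse 8 (2.23 CPM). The list of 17 diencephalon and midbrain genes summed to 0 to 9.47 CPM with a median of 2.01, against a median of 1.04 and a highest sum of 17.2 CPM in astrocytes. Pax3 had a mean of 0.0221 CPM and Foxb1 was at 0. In double-positive cells that list had a median of 0.199 CPM, with mouse 10 at 5.39 CPM above the other 15 at no more than 0.540 CPM, and in microglia a median of 0.235 CPM. Hindbrain genes were read in these sorts through few members. Hoxb4 had means of 3.51 CPM in double-positive cells and 3.04 CPM in microglia and 0 in astrocytes, and Pax5, a factor of the midbrain and hindbrain border that B cells also use, 3.64 CPM in microglia and 0.153 CPM in double-positive cells.

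Zic1 and Zic2 were raised in single libraries of the motor cortex sorts. The CaMKII positive library of mouse 8 held 120 CPM of Zic1, against at most 56.0 CPM in the other 9, and also the highest sums of meningeal fibroblast markers (1074 CPM against 174 to 394) and ependymal markers (483 CPM against 2.37 to 287) and of oligodendrocyte markers (3553 CPM against at most 1178), with the lowest Lhx2 (69.1 CPM) and Emx2 (20.2 CPM). The library of mouse 17 held the highest Zic2 (214 CPM) and the highest endothelial sum (7986 CPM). In double-positive cells mouse 10 held 23.2 CPM of Zic1 and 18.9 CPM of Zic2, with the highest meningeal (193 CPM) and endothelial (481 CPM) sums. It also held the highest sums of oligodendrocyte markers (351 CPM against at most 92.6) and of oligodendrocyte precursor markers (138 CPM against at most 42.3). The part of these cell types in the Zic levels was not tested.

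No factor was called between burn and sham in any of the 4 populations, where 0% of all genes were called by edgeR. At an unadjusted p under 0.05 there were 1096 of 28107 genes in CaMKII positive cells, 1872 of 26707 in double-positive cells, 2984 of 27930 in astrocytes and 2036 of 26079 in microglia. The factor with the smallest p in astrocytes was Irx2, at 2.60 ± 3.98 CPM in burn (SD, n = 9) and 0.0230 ± 0.0650 CPM in sham (SD, n = 8), and it did not pass in edgeR (log2 fold change 6.18, SE 2.21, adjusted p = 0.458). All of the burn signal came from mice 11, 21 and 23, and 6 of 9 burn libraries were at 0. Lhx2 was at 257 ± 37.2 CPM in burn (SD, n = 9) and 290.3 ± 36.1 CPM in sham astrocytes (SD, n = 8), with overlapping ranges and a log2 fold change of -0.21 (SE 0.09, adjusted p = 0.458).

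The factors with the smallest p elsewhere were near the floor. These were Irx2 in CaMKII positive cells, read in 1 library (log2 fold change 4.39, SE 2.04, adjusted p = 1.00), Irx1 in double-positive cells (3.27, SE 1.51, adjusted p = 0.708) and Emx2 in microglia (-5.29, SE 1.91, adjusted p = 0.639). For the well-read factors of 2 populations the estimates were small. In astrocytes those of Emx2, Otx1, Zic1 and Zic2 ran from -0.21 to 0.25, and in CaMKII positive cells those of Emx2, Lhx2, Otx1, Zic1 and Zic2 ran from -0.42 to 0.51. In double-positive cells Zic2, at 4.71 ± 5.63 CPM in burn (SD, n = 9) and 1.73 ± 0.602 CPM in sham (SD, n = 7), had an estimate of 0.37 (SE 0.41, adjusted p = 0.979), and of 1.41 (adjusted p = 0.626) with no batch term. The difference between the burn effects of 2 populations of a region was tested as an interaction, where 0.00977% of genes were called between CaMKII positive and double-positive cells and 0.00323% between astrocytes and microglia. None of the 9 factors was called in either, and the smallest p was that of Emx2 between astrocytes and microglia (log2 difference 3.52, SE 0.94, adjusted p = 0.229), which DESeq2 called (3.95, adjusted p = 0.00218).

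**Figure D4:**
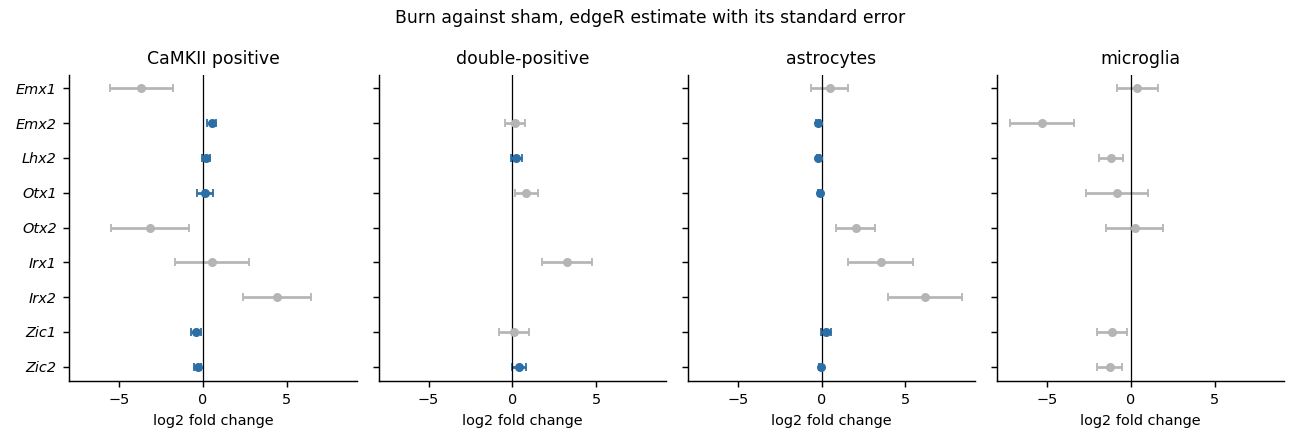
Log2 fold change of burn against sham for the 9 factors in each population, with the standard error of the edgeR fit as a bar. Blue points are factors with more than 3 counts in every library of the population, grey points those at or under 3 counts in some library, and factors without a tested value are left out. The blue points of the astrocytes lie between -0.21 and 0.25 and the wide bars belong to the grey points.

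The genes whose pattern was most like that of each factor were found by the Pearson correlation of log2(CPM + 0.5) over the 58 libraries, as a description over libraries that share cell type and depth. For Lhx2 these were Cspg5 (r = 0.995, Spearman's rho 0.981), Grm3 (0.993 and 0.961) and Pou3f3 (0.993 and 0.977). For Emx2 they were Ndrg2 (0.994 and 0.960), Asrgl1 and Mfap3l, for Otx1 Pde9a (0.989 and 0.936), Zfpm2 and Slc27a1, for Zic2 Nebl (0.989 and 0.921), Axin2 and Nfib, and for Zic1 Afap1l2 (0.962 and 0.929), Egflam and Fzd6. Otx2 had no gene as close, with Irx5 at 0.757 and rho 0.529. Within the 17 astrocyte libraries Irx1 and Irx2 were among the 3 genes most like each other (r = 0.956, rho 0.891), and both were most like B230323A14Rik, at 0.985 for Irx1 and 0.974 for Irx2. Otx2 was most like Clic6 there (0.908 and 0.897), a gene of the choroid plexus.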

How the data were processed

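RNA was prepared as stranded total RNA libraries after removal of ribosomal RNA. Reads were trimmed with fastp, aligned with STAR and counted per Ensembl gene by the authors, who deposited 1 table of raw counts per sorted population. The labels name the builds GRCm39 and mm10, and the annotation release and strand setting are not given in the sources used here. Tables of values on a log2-like scale, also deposited, were not used. Of 63 libraries from 18 mice, 58 from 17 mice were kept. The libraries of mouse 3 and the double-positive library of mouse 8, which held 331215 counts, were left out, as the study did. The number of unused sample columns was 0. Symbols were matched to 52073 of 56980 IDs. The 9 members and all gene lists were chosen with earlier results of these data known.

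CPM was the count over the total of the library. Genes with at least 10 counts in total were tested with edgeR 4.0.16 quasi-likelihood tests after TMM normalisation, with Benjamini-Hochberg adjustment over all genes, an adjusted p of at most 0.05 and a log2 fold change of at least 1. Burn and sham were compared per population with the 3 batches as a term, as the study's supplement assigns mice to them, and populations in 1 fit over 58 libraries with batch and treatment. DESeq2 1.42.0, other scalings and filters, all 63 libraries, no batch term, batch 3 alone, each mouse left out and the mouse as a block were alternatives. Libraries with the same number come from the same mouse, and the correlations of their deviations from the group means had medians of 0.0157 to 0.0723 over the 6 pairs of populations. Replicates are separate mice. The tests were first tried on simulated counts. Named genes were all 9 members, their neighbours in the genome, the 4 highest genes of the lists of other patterning genes, and the 3 genes most like each member. Some genes of these lists are not reported here.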

Additional observations from a re-analysis of the deposited data

Results flagged for a closer look

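Of 64 groups of 4 to 9 libraries, 17 had a highest library that stood apart from the others by Dixon's criterion, which chance meets in about 1 in 20 groups. Where the other libraries of a group are at or near 0, any count meets it.

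In astrocytes these were Irx1 in mouse 23 of the burn group (15.9 CPM against at most 6.53), Irx1 in mouse 15 (1.02 CPM) and Irx2 in mouse 8 (0.184 CPM) of the sham group, Otx1 in mouse 12 (91.9 CPM against 43.5 to 66.3) and Emx1 in mouse 18 (2.06 CPM against at most 0.555). In CaMKII positive cells they were Zic1 in mouse 8 of the sham group (120 CPM against 27.5 to 56.0) and Irx2 in mouse 20 of the burn group (0.404 CPM). In double-positive cells they were Zic1 (23.2 CPM against at most 2.56), Zic2 (18.9 CPM against 0.720 to 6.94) and Otx2 (0.0315 CPM) in mouse 10, Otx2 in mouse 18 (0.0599 CPM) and Irx1 in mouse 12 (0.0186 CPM). In microglia they were Emx1 in mouse 21 (0.218 CPM) and mouse 8 (0.347 CPM), Emx2 in mouse 7 (0.0626 CPM), Otx2 in mouse 21 (0.491 CPM against at most 0.118) and Zic2 in mouse 20 (1.86 CPM against at most 0.763).

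The astrocyte library of mouse 3, of the burn group, was left out of all comparisons but the alternative with all 63 libraries. It held 1.63 CPM of Irx1, 1.42 CPM of Irx2 and 38.6 CPM of Zic1, above the highest sham libraries at 1.02, 0.184 and 34.6 CPM. All 3 values lay within the range of the kept burn libraries of astrocytes.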

How the results depend on the processing

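The number of factors called was within 1.5 times its first value in 98 of 102 alternative fits and in 111 of 112 fits without a mouse. Between CaMKII positive cells and astrocytes it was 2, and it fell to 0 with scaling by total count only and to 1 in batch 3 only, with 1 to 3 when a mouse was left out. Between double-positive cells and microglia it was 5, and 3 in batch 3 only. For the interaction of astrocytes and microglia it was 0, and 1 with DESeq2. The cause of these changes was not tested.

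Directions turned for burn against sham in CaMKII positive cells in batch 3 only (Lhx2 -0.0711, Otx1 -0.22, Irx1 -0.27) and for Irx1 with no batch term (-0.0474). Leaving out 1 mouse at a time, the values there ran from -0.0756 to 0.32 for Lhx2, from -0.22 to 0.41 for Otx1 and from -0.58 to 1.42 for Irx1. They also turned in batch 3 only for Zic1 in double-positive cells (-0.56) and Zic2 in astrocytes (0.0120), and for Emx1 in microglia with all 63 libraries (-0.45) or no batch term (-0.99). Between CaMKII positive cells and astrocytes, Emx2 (0.0406), Lhx2 (0.0251) and Otx1 (0.29) turned after scaling to the astrocyte markers and Irx2 (0.0403) in the exact paired test, and Emx1 ran from -0.71 to 1.36 with a mouse left out. With the mouse as a block, Emx1 between double-positive cells and microglia turned (0.0295), and it ran from -1.68 to 0.21 with a mouse left out. The block also turned Emx2 (-0.16), Otx2 (1.03) and Zic1 (0.19) in the interaction of CaMKII positive and double-positive cells. With DESeq2 the interaction of Otx2 (10.6) turned there, and that of Otx1 (0.0406) between astrocytes and microglia. Emx2 and Lhx2 between CaMKII positive cells and astrocytes were called by edgeR and lost the call after scaling to the astrocyte markers. None of the turned values was called.

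Over all genes, burn against sham gave 3, 2, 27 and 80 calls with DESeq2 in CaMKII positive cells, double-positive cells, astrocytes and microglia, against 0 with edgeR. It gave 14 and 4 without a filter in double-positive cells and astrocytes, and 136 in double-positive cells with all 63 libraries. Between double-positive cells and microglia 2647 genes were called, 1529 with the mouse as a block and 1056 in batch 3 only. The interactions had 94 and 334 calls with DESeq2, against 3 and 1 with edgeR and 0 and 0 with the block, and 10 and 2 with all 63 libraries. The share of calls that were higher in CaMKII positive cells than in astrocytes was 76.4%, and 57.1% with no minimum fold change. Scaling by total count only moved the median log2 fold change there from -0.03 to 0.15. The block lost the calls of Zic1 and Irx1 given above and changed no other call of a factor. Factors at or under 3 counts in both groups were left out of these counts. Values of Irx1, Irx2, Otx2 and Emx1 rested on a few libraries, and levels under 0.0223 to 0.225 CPM could not be told from 0 at this depth.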
